A study of Mus musculus with 2 samples.

Results

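Genes that mark adipocytes, or that encode hormones made by adipocytes, were followed on a pair of arrays labelled as mouse skin epithelial cells. The 10 genes were chosen by name: Fabp4, Adipoq, Lep, Retn, Cfd, Plin1, Car3, Pparg, Cebpa and Pck1. Each was read by 1 probe whose RefSeq accession belongs to the gene, and these were 10 of the 20140 genes that the probes could be assigned to. Of the 10 genes, 9 were well above background, by the scanner software's own flag, on both arrays, and Lep was the exception. All 14140 genes well above background on both arrays are called the measured genes below.

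By the labels, RNA came from primary mouse keratinocytes, which build the epidermis, and was hybridised to 1-colour Agilent arrays. Markers of other cell types were read as well, as given below. By its label, the control (Rac3-KO) lacks the small GTPase Rac3, and the other group (Rac1Rac3-DKO) lacks Rac1 and Rac3, so the loss of Rac3 is common to both. The labels call the cells P3 without saying what P3 stands for, and they name neither the driver of the Rac1 deletion nor the number of mice. With 1 array for each genotype there were no replicates, so every difference below is a description and none was tested. The arrays are called the control array and the DKO-labelled array.

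White adipocytes store triglyceride in a single large droplet and release hormones. Their differentiation is driven by the nuclear receptor PPARG and the transcription factor C/EBP alpha, which keep each other expressed and switch on genes for fatty acid binding, droplet coating and hormone secretion. In skin such cells form a layer beneath the dermis, and the series title concerns how keratinocytes act on them. In a bulk sample, fewer cells of a type and less RNA per cell cannot be told apart.

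Values are the scanner's processed signal, which is background-subtracted intensity, and the log2 level, which is the log2 signal minus the 75th percentile of the array's probes. That percentile was a signal of 705 on the control array and 354 on the DKO-labelled array, and the lowest signals well above background were 23.4 and 20.1. The error given with a log2 difference is the scanner software's signal error, which holds no variation between cultures or animals. For bright spots it is a nearly constant share of the signal and not a measured spread. The Rac probes did not bear out the labels. The brighter Rac1 probe had signals of 19847 on the control array and 12140 on the DKO-labelled array, a log2 difference of 0.28 ± 0.20, a further Rac1 probe differed by -0.12 ± 0.20, and Rac3 was well above background on both arrays with signals of 99.8 and 59.1. Where these probes lie relative to the deleted exons was not determined here. The Y-linked genes Ddx3y and Eif2s3y had signals of 984 and 2498 on the control array, and of 4.64 and 4.33, not well above background, on the DKO-labelled one. The arrays thus differed in this sign of male cells as well as in the genotype label. Without replicates, differences that go with sex cannot be separated from differences that go with the label. The part of sex in the results below was not tested.

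The windows of 250 bases before the transcription start are shown for the 2 genes at least 2-fold apart between the arrays, Retn and Pck1, for Adipoq, whose difference was the median of the 9 measured genes, and for Cebpa, which was lower. The sequences are those of RefSeq on build GRCm38.p6, written in the direction of transcription, and capitals mark motif matches on either strand.
Retn, chr8:3655520-3655769, plus strand: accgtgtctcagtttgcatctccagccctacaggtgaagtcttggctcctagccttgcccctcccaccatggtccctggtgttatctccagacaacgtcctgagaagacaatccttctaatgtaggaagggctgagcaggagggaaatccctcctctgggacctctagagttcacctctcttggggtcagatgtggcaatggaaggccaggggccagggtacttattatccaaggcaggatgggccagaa
Adipoq, chr16:23146286-23146535, plus strand: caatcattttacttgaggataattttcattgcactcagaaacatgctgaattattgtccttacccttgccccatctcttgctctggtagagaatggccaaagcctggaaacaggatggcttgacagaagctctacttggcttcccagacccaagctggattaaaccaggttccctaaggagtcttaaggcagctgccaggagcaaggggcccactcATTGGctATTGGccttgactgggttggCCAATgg
Cebpa, chr7:35119043-35119292, plus strand: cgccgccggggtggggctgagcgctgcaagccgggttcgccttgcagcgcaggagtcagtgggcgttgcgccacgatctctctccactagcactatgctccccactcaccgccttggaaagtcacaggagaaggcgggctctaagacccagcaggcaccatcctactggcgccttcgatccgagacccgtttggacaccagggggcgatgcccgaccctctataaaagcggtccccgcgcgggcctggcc
Pck1, chr2:173152823-173153072, plus strand: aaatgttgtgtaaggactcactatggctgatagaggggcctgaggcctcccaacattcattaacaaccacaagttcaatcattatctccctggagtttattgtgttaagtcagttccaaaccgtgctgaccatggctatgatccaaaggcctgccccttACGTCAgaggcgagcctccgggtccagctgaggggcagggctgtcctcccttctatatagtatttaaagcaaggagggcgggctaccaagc
The motifs searched were the C/EBP site TTGCNNAA, the nuclear receptor site AGGTCA, its DR1 direct repeat (which contains AGGTCA), the cyclic AMP response sequence ACGTCA and the CCAAT box, on both strands. Of the 10 genes, 8 had windows in the table, 10 windows in all, since Pparg had 3 starts. The window of Pck1 held ACGTCA, from 91 to 86 bases before the start, as did 6.5% of all 32536 distinct windows. The window of Adipoq held CCAAT or its complement 3 times in its last 34 bases, and 33.8% of all windows held it at least 1 time. TTGCNNAA was found in windows of Lep, Plin1 and Pparg, against 9.57% of all windows, and AGGTCA in 2 of the windows of Pparg, against 14.0%. CCAAT was also found in 2 windows of Pparg, and DR1 in none of the 10 windows, against 0.0338%. The windows of Retn, Cfd and Cebpa held none of these letters, which says nothing beyond these windows. Fabp4 and Car3 are named without a window. A match is a description of the sequence only.

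Most of the adipocyte genes were higher on the DKO-labelled array once each array was scaled to its 75th percentile, and a pair was lower. Of the 9 measured genes, 7 had a log2 difference above 0 and 2 below 0, with a median of 0.57, beside -0.01 for all measured genes, of which 49.4% lay above 0. The only gene of the set at least 2-fold higher was Retn, the resistin gene, beside 7.72% of all measured genes, and the only one at least 2-fold lower was Pck1, beside 6.62%. A count of 1 of 9 each way is close to these background shares. The scaling sets the sign of most of these values. Before it, 8 of the 9 genes had a lower signal on the DKO-labelled array, and 7.82% of all measured genes had a higher one. Relative to spike-in RNAs, all 9 genes were lower.

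**Figure D1:**
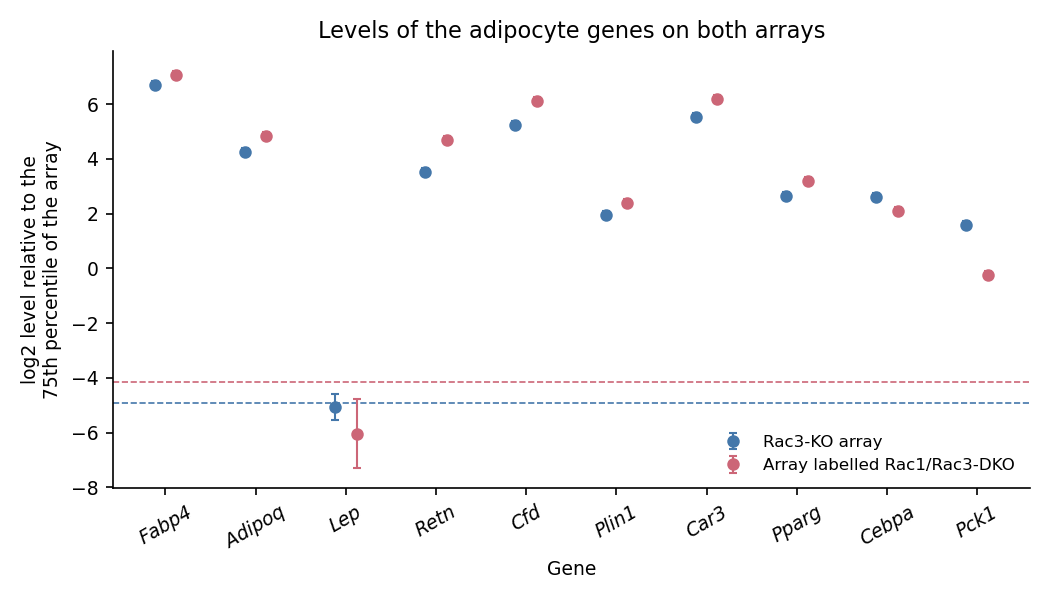
Log2 level of each of the 10 adipocyte genes relative to the 75th percentile of its array, on the Rac3-KO array (blue) and the array labelled Rac1/Rac3-DKO (red), 1 array each. Bars are the scanner software's signal error and are hidden by most points, and dashed lines mark the lowest level well above background on each array. Lep lies below both lines, and Pck1 goes from 1.59 to -0.25.

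The driver of adipocyte differentiation, Pparg, was read by a probe spotted 10 times on each array. On the control array the spots had signals from 4197 to 4602, with a median of 4371, and on the DKO-labelled array from 3036 to 3374, with a median of 3284. These signals are before scaling, where 7.82% of all measured genes had a higher signal on the DKO-labelled array. The SD over spots was 0.04 and 0.05 on the log2 scale, which covers spotting and scanning only. After scaling, Pparg was at log2 levels of 2.63 and 3.20, a difference of 0.57 ± 0.20, or 1.48-fold higher on the DKO-labelled array. Pparg is also expressed by sebaceous and immune cells.

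Cebpa, the partner of Pparg in differentiation, went the other way. Its signal was 4250 on the control array and 1517 on the DKO-labelled array. Its log2 level was thus 2.59 and 2.10, a difference of -0.49 ± 0.20, or 1.41-fold lower. Before scaling, its signal on the DKO-labelled array was 35.7% of that on the control array, while that of Pparg was 74.6%. Cebpa is made in the epidermis as well as in fat, and the keratinocyte markers given below were lower on the same array. Their part in its difference was not tested.

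The secreted products were headed by Retn, which encodes resistin, an adipocyte hormone of rodents. Its signal was 8162 on the control array and 9096 on the DKO-labelled one. It was the only one of the 9 measured genes whose signal was higher on the DKO-labelled array before scaling. At log2 levels of 3.53 and 4.68 it differed by 1.15 ± 0.20, or 2.22-fold, and 5.62% of measured genes had a larger difference in that direction. The call at 2-fold was lost with normexp background correction of the median spot signal, which gave 0.93. That alternative changes the signal measure as well as the background correction. Cfd, which encodes adipsin, the complement factor D secreted by fat, had signals of 26439 and 24379. Its log2 levels were 5.23 and 6.10, a difference of 0.88 ± 0.20, or 1.83-fold. Adipoq encodes adiponectin, the hormone most closely tied to adipocytes. It had signals of 13555 and 10099 and log2 levels of 4.27 and 4.83, a difference of 0.57 ± 0.20, or 1.48-fold.

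Lep, the gene of the satiety hormone leptin, stayed near background on both arrays. Its probe was spotted 10 times. On the control array the signals ran from 6.51 to 31.1 with a median of 22.4, and 3 of the 10 spots were well above background. The 9 spots used from the DKO-labelled array ran from 4.09 to 10.2 with a median of 4.63, and 0 of all 10 spots passed the flag, including a spot at 18.6 marked as an outlier by the software. The signal errors of single spots, from 4.10 to 6.89, are as large as most of the signals on the DKO-labelled array, so no fold is given.

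**Figure D2:**
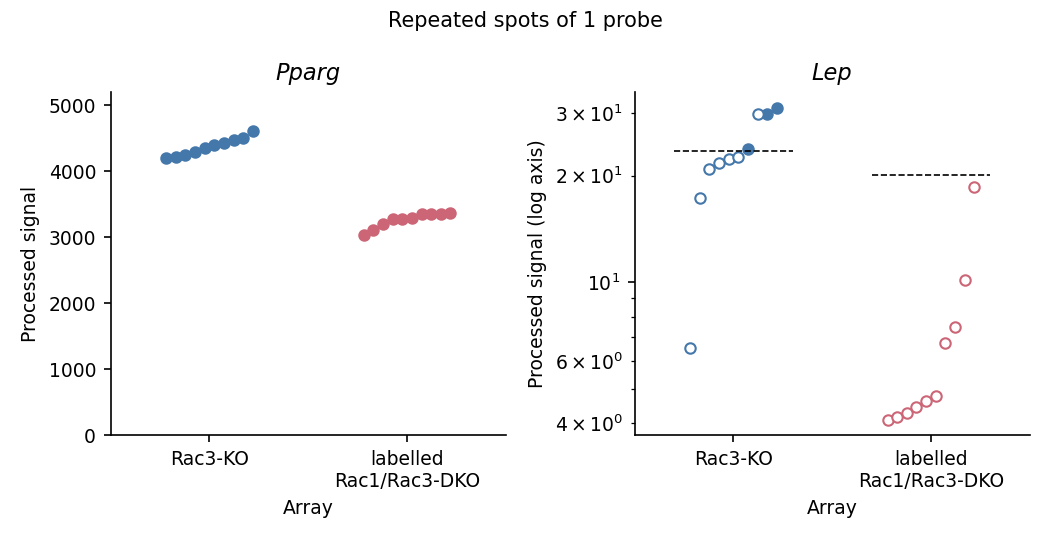
Processed signal of each repeated spot of the Pparg probe (left, linear axis from 0) and the Lep probe (right, log axis) on both arrays, before scaling. Filled points were well above background, open points were not, dashed lines mark the lowest signal well above background, and points are sorted by value within an array. All spots of Pparg were well above background, and those of Lep in 3 of 10 cases on the control array only.

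Fabp4, Plin1 and Car3 were higher on the DKO-labelled array after scaling, each by less than 2-fold. Fabp4, the fatty acid binding protein of adipocytes, also made by capillary endothelium and macrophages, had signals of 72955 on the control array and 47797 on the DKO-labelled array. Its log2 levels were 6.69 and 7.08, a difference of 0.38 ± 0.20, or 1.30-fold. Plin1, the perilipin that coats the droplet of adipocytes and gates lipolysis, had signals of 2733 and 1832, and its log2 level differed by 0.42 ± 0.20, or 1.33-fold. With normexp the difference of Fabp4 was 0.18 and that of Plin1 0.21, each close to the signal error. Car3, a carbonic anhydrase abundant in fat and in slow muscle, had signals of 32469 and 26025 and log2 levels of 5.53 and 6.20, a difference of 0.67 ± 0.20, or 1.59-fold.

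Pck1 stood at the other end. It encodes the cytosolic phosphoenolpyruvate carboxykinase, which in fat makes the glycerol backbone for fatty acid re-esterification and is a classical target of PPARG. Its signal was 2115 on the control array and 298 on the DKO-labelled array, so that before scaling the latter was 14.1% of the former. Its log2 level went from 1.59 to -0.25, a difference of -1.83 ± 0.21, or 3.56-fold lower, and only 1.39% of measured genes had a lower difference. Under the scalings, background corrections and value tables tried, other than spike-ins, its difference ranged from -1.93 to -1.79.

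Ordered by difference, the genes ran Retn, Cfd, Car3, Pparg, Adipoq, Plin1, Fabp4, Cebpa, Pck1. None of the gaps between neighbours from Retn to Fabp4 exceeded the combined signal error of the neighbours, at most 0.27 against 0.29. That error is nearly the same for every bright gene, so it is a yardstick and not a spread measured for these genes. The 6 genes from Cfd to Fabp4 lay between 0.38 and 0.88. The gap from Fabp4 to Cebpa was 0.88, and that from Cebpa to Pck1 was 1.34, both larger than the combined signal error of 0.29.

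**Figure D3:**
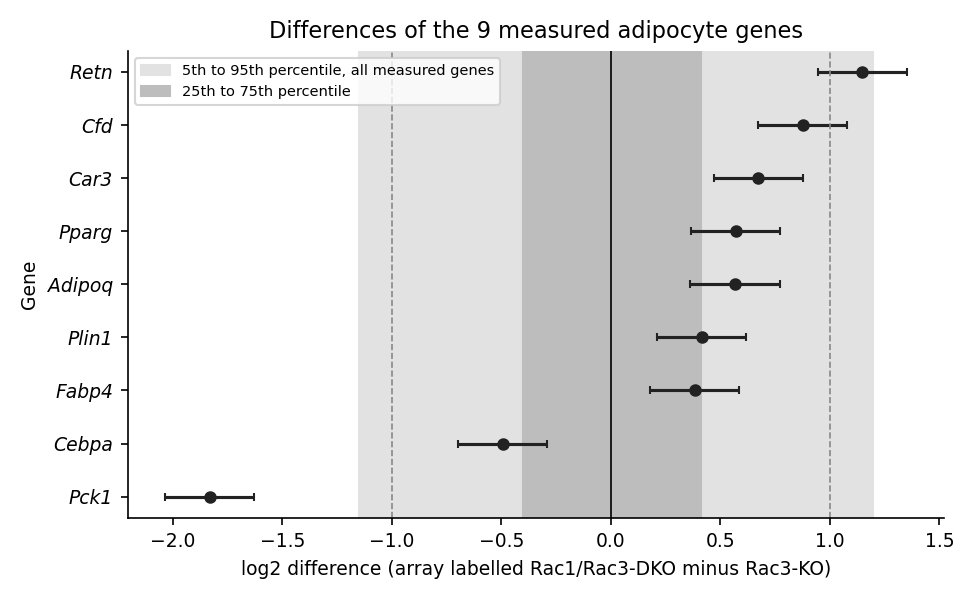
Log2 difference (array labelled Rac1/Rac3-DKO minus Rac3-KO) of the 9 measured adipocyte genes, with the scanner software's signal error as bars, 1 array per group. Shading gives the percentiles of all 14140 measured genes, from -1.15 to 1.20 for the wider band, and dashed lines mark 2-fold. Pck1 lies outside the wider band, and 7 genes lie to the right of 0.

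Paralogues of the genes, many of which serve other tissues, had differences of both signs. Among fatty acid binding proteins, Fabp3 of muscle had signals of 1023 and 3331, a difference of 2.70 ± 0.20, and Fabp5 of the epidermis had 82796 and 26923, a difference of -0.63 ± 0.20, with Fabp4 between them. Fabp7 of glia and melanocytes differed by -1.16 ± 0.22, or by -0.61 with normexp, and Pmp2 was not well above background on either array. Among perilipins, Plin5 of oxidative tissues was 2.67-fold higher and Plin4, of adipocytes and muscle, 2.51-fold higher, while Plin2 and Plin3, found in most cells, differed by 0.45 and 0.08. Plin3 was at -0.17 with normexp, which also replaces the processed signal by the median spot signal, so its sign depends on the processing. Of the other C/EBP genes, Cebpd, which acts early in adipogenesis, was 2.67-fold higher, with signals of 15390 and 20673, and Cebpb, Cebpg and Cebpe differed by -0.15, -0.22 and 0.70. In the resistin family, Retnlg differed by 0.78, Retnlb was not well above background on either array, and Retnla, made by fat and by alternatively activated macrophages, was detected on 1 array, the DKO-labelled one, at a level at least 3.91-fold higher. That bound does not hold with normexp, where the log2 difference of Retnla was 1.31. Pck2, the mitochondrial isozyme of Pck1, differed by -0.32 ± 0.32 and by 0.30 with normexp, and so has no settled sign.

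Other genes of adipocyte differentiation, taken from lists of textbook genes, were spread to both sides. Of 19 transcription factors of adipogenesis, all measured, 2 were higher and 2 lower by 2-fold or more, beside 7.72% and 6.62% of all measured genes. These counts are close to those shares. The median of the list was -0.05, or 0.02 with normexp. Cebpd and Klf15, which is induced by glucocorticoids, were 2.67-fold and 2.39-fold higher, and Egr2, also known as Krox20, and Srebf1, the regulator of fatty acid synthesis, 2.39-fold and 2.07-fold lower. With normexp, Srebf1 differed by -0.61 in place of -1.05 and Klf15 by 0.91 in place of 1.26. Of 16 genes of preadipocytes and of restraint on adipogenesis, 2 were at least 2-fold higher and 1 lower, with a median of 0.47. Ly6a, the stem cell antigen Sca-1, and Pi16, a marker of fibroblast progenitors, were 2.72-fold and 2.39-fold higher, and Gata3, which is also a keratinocyte factor, 2.21-fold lower. Dlk1, the preadipocyte factor Pref-1, had signals of 186819 and 184312 and differed by 0.97 ± 0.20.

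The genes of the lipid droplet and of lipolysis had members on both sides as well. Of 14 genes, all measured, 3 were at least 2-fold higher and 2 lower, beside 7.72% and 6.62% of all measured genes. Their median was 0.56. The triglyceride lipase gene Pnpla2 had signals of 12074 and 22028 and was 3.63-fold higher, and Cidec, which enlarges droplets in adipocytes, differed by 0.88 ± 0.20. The adipocyte receptor for catecholamines, Adrb3, had signals of 570 and 59.6 and was 4.81-fold lower, and G0s2, an inhibitor of that lipase, had 1006 and 117 and was 4.32-fold lower. With normexp, Adrb3 differed by -1.32 in place of -2.27 and G0s2 by -1.76 in place of -2.11. A dimmer Adrb3 probe had signals of 55.6 and 17.3, the latter not well above background. Plin4 and Plin5, given above, were the other genes past 2-fold.

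Triglyceride synthesis and fuel uptake gave 4 of 21 genes at least 2-fold higher and 2 lower, beside 7.72% and 6.62% of all measured genes. Their median was 0.26. The phosphatidate phosphatase gene Lpin1 was 3.67-fold higher, the desaturase gene Scd1 2.88-fold, the pyruvate carboxylase gene Pcx 2.52-fold and the lipogenic gene Thrsp 2.18-fold. The elongase gene Elovl6 was 3.29-fold lower and Dgat2, which makes triglyceride, 2.17-fold lower. The lipoprotein lipase gene Lpl and Slc2a4, the insulin-responsive glucose transporter of fat and muscle, differed by 0.92 and 0.98. With normexp, Thrsp was 0.95 in place of 1.12. Of 11 insulin signalling genes 0 were at least 2-fold apart, and the differences ran from -0.71 for Cav2 to 0.78 for Irs2, with a median of 0.34.

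Of the further adipokine genes 7 measured ones were above 0 and 4 below, beside 49.4% of all measured genes above 0. Of the receptor genes 5 were above 0 and 1 below, with Lepr counted at its brightest probe. Of 13 further adipokine genes 11 were measured, with a median of 0.42. Of these, 2 were at least 2-fold higher and 0 lower, beside 7.72% and 6.62% of all measured genes. Lcn2, an iron-binding protein also made by neutrophils and epithelium, was 3.02-fold and Agt, the angiotensin precursor, 2.08-fold higher, and Apln, the apelin gene, differed by -0.99 ± 0.21, next to the 2-fold threshold. Agt was at 0.94 with normexp in place of 1.06. Of 7 adipokine receptor genes 6 were measured, with a median of 0.33, and C5ar2 was the lowest at -0.57. Lepr, the leptin receptor gene, was 2.42-fold higher at its brightest probe. Its other measured probes differed by -0.70 and -0.02, so the gene has no single direction. The mean over all its probes was -0.01, which takes in a probe at -0.59 that was not well above background on either array.

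**Figure D4:**
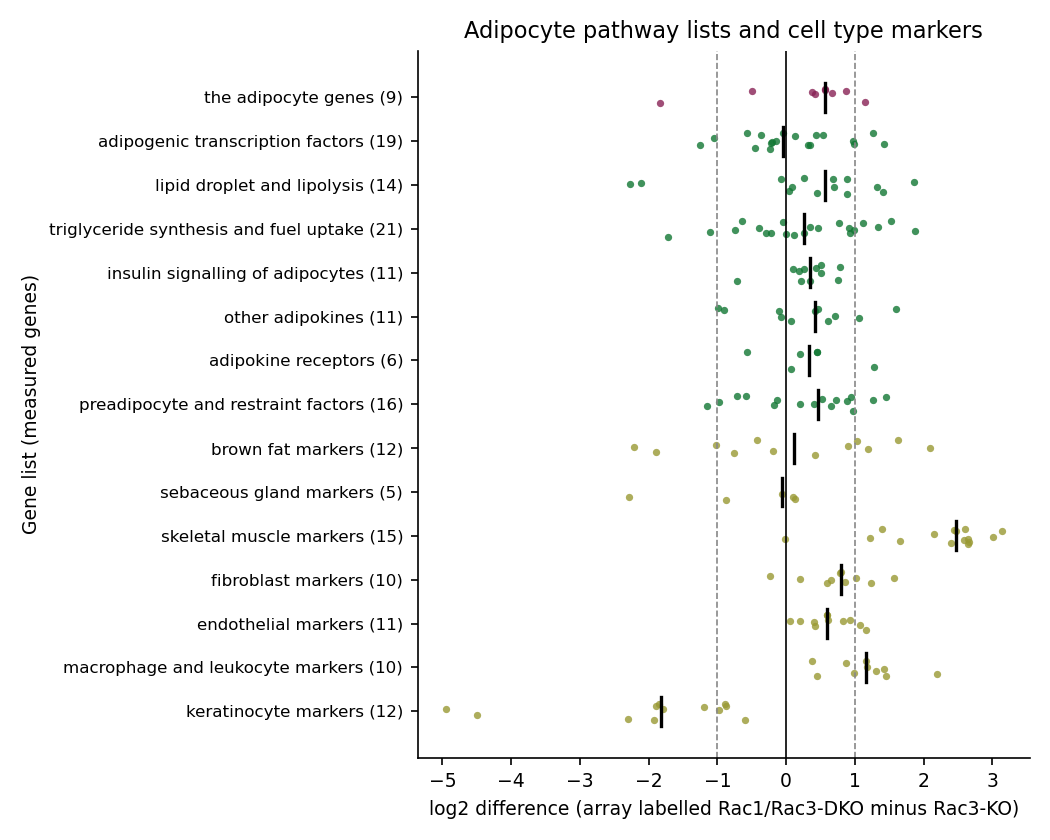
Log2 difference (array labelled Rac1/Rac3-DKO minus Rac3-KO) of each measured gene, as points, in the adipocyte genes, 7 lists of adipocyte pathways (green) and 7 lists of cell type markers (olive), with the number of measured genes in parentheses. Black bars are medians and dashed lines mark 2-fold. The adipocyte genes, with a median of 0.57, lie near the fibroblast and endothelial markers, with medians of 0.79 and 0.60, and apart from the muscle and keratinocyte markers, with medians of 2.48 and -1.82.

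Markers of other cell types of skin and its surroundings also differed between the arrays. All 10 fibroblast markers were measured, of which 3 were at least 2-fold higher, with a median of 0.79 and a summed signal of 1088290 on the control array and 985498 on the DKO-labelled one. The collagen genes Col1a2 and Col3a1 differed by 0.85 and 0.79, and the microfibril genes Mfap5 and Fbn1 by 1.57 and 1.23. Across the alternatives other than spike-ins, Col1a2 went as low as 0.10 and Col3a1 as low as 0.44, and the fibroblast median was 0.54 with quantile normalization. All 11 endothelial markers were above 0, with a median of 0.60 and summed signals of 32105 and 25885. Egfl7 differed by 0.42, Cldn5 by 1.07 (0.92 with normexp) and Kdr by 1.17 at its brighter probe and 0.24 at the other, with a mean of 0.70. Of 11 macrophage and leukocyte markers 10 were on the array by name and measured, 6 of them at least 2-fold higher, with a median of 1.17 and summed signals of 37895 and 45957. Csf1r, Itgam and Cd163 differed by 1.45, 1.16 and 2.19. With normexp Itgam was at 0.88 and Cd163 at 1.46, and the mean over the Itgam probes was 0.55. All 15 muscle markers were measured, 14 of them at least 2-fold higher, with a median of 2.48 and summed signals of 275655 and 744130. The troponin genes Tnnc2 and Tnni2 differed by 2.40 and 2.66 and Actn3 by 3.14, and Ckm was 8.02-fold higher. Of 13 keratinocyte markers 12 were measured, 8 of them at least 2-fold lower, with a median of -1.82 and summed signals of 617380 and 84417. The 8 include Trp63, at -1.80 at the probe used. Its other probe was at 0.43 and the mean over its probes at -0.68, so this gene has no single direction. The basal keratin genes Krt5 and Krt15 differed by -1.20 and -2.31 and the suprabasal Krt10 and Krt1 by -4.50 and -4.95, while Ivl was detected on the control array only, and was at 0.17 with normexp. Keratinocyte markers were thus read on both arrays, beside markers of other cell types. The summed signal of the keratinocyte list was below that of the fibroblast list on both arrays. On the DKO-labelled array it was also below that of the muscle list. Sums over different probes are not shares of cells. The part of each of these cell types in the differences of Fabp4, Retn, Car3, Pparg, Cebpa and the other genes was not tested.

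Brown fat and sebaceous gland, which share lipid genes with white fat, were examined by markers too. All 12 brown fat markers were measured, of which 4 were at least 2-fold higher and 3 lower, with a median of 0.11 that became -0.27 when all probes of each gene were averaged. Ucp1, the uncoupling protein that defines brown fat, had signals of 737 and 99.7 and was 3.72-fold lower, the elongase gene Elovl3 was 4.63-fold and the droplet gene Cidea 2.04-fold lower. Ppargc1a, Cox8b and Cox7a1, which are high in muscle as well, were 4.25-fold, 3.09-fold and 2.28-fold higher, and Zic1 differed by -0.20 ± 0.20. Otop1 was 2.05-fold higher at the probe used, but a further probe had signals of 302 and 12.6, the latter not well above background, so the gene has no single direction. With normexp, Elovl3 differed by -0.78 in place of -2.21, Ucp1 by -1.32 in place of -1.90, Cidea by -0.92 in place of -1.03 and Otop1 by 0.96 in place of 1.04. The summed signals of the brown fat markers were 19126 and 13441. Of 9 sebaceous gland markers 5 were measured, with a median of -0.05 and summed signals of 127265 and 35434. Above 0 were Scd3 at 0.13 and Mc5r at 0.11, or 0.035 and 0.54 with normexp. The other measured Scd3 probes differed by 1.37 and 1.31, and the mean over its probes was 0.94. The hydroxylase gene Fa2h was 4.87-fold lower, with a log2 difference of -1.45 with normexp in place of -2.28. Krt79 differed by -0.87 ± 0.20 and Prdm1 by -0.05 ± 0.20, or by -1.17 and 0.05 with normexp. Awat1 and Awat2, the wax synthases, were detected only on the control array, with signals of 63.7 and 32.7, and Dgat2l6 and Far2 on neither. With normexp Awat1 and Awat2 were at 0.13 and 0.25, so they have no settled direction. The brown fat markers thus lay 6 above 0 and 6 below, and the part of brown fat and sebaceous RNA in the difference of Pck1 was not tested.

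**Figure D5:**
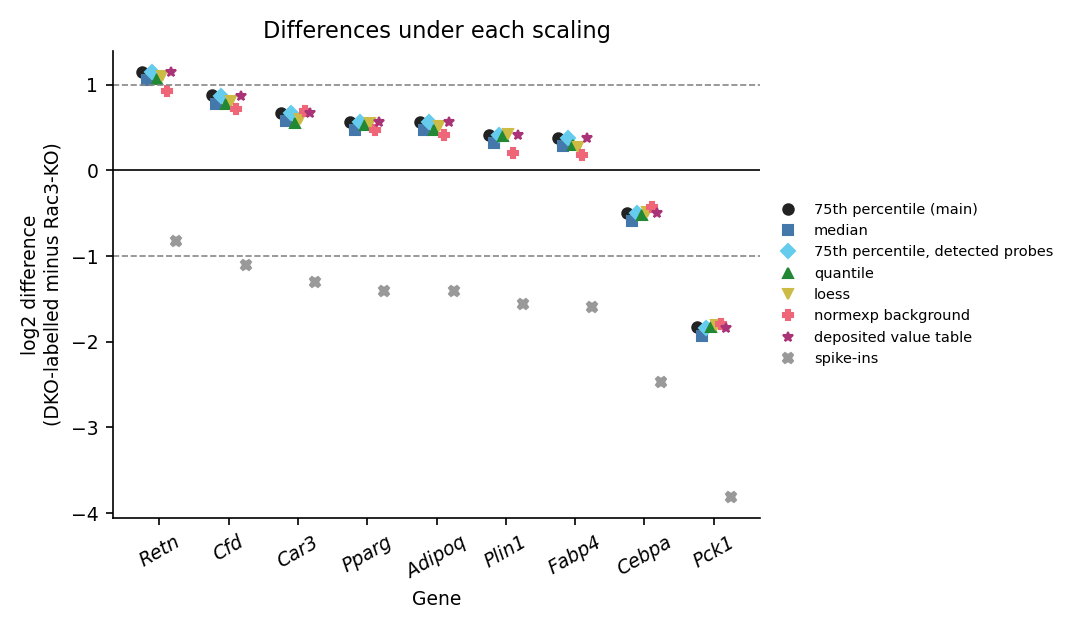
Log2 difference (array labelled Rac1/Rac3-DKO minus Rac3-KO) of the 9 measured adipocyte genes under the main scaling and 7 alternatives, with dashed lines at 2-fold. The order from Retn to Pck1 stays similar, while spike-in scaling places every gene below 0, from -0.83 for Retn to -3.81 for Pck1.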

How the data were processed

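Total RNA was amplified and labelled with Cy3, per the labels' protocols. Spot intensity comes from the deposited scanner files. Their headers name version 10.10.1.1 of Feature Extraction, while version 9.1 stands in the submitters' processing notes. Per the file headers, the software subtracted background and detrended within each array, and both arrays lay on 1 slide and shared a scan. The value table deposited by the authors holds log2 values, which are the log2 processed signals less a constant close to the 75th percentile, for 100% of 55246 probes spotted 1 time, within 0.001. Its column medians are -3.72 and -3.62.

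Control and outlier spots were left out, log2 signals averaged over the spots of a probe, and each array's 75th percentile over 55678 probes subtracted. A probe was well above background when most of its spots were. Unversioned accessions were looked up among the RefSeq transcripts of GRCm38.p6, for names only because the array design uses an older build, which named 26574 probes and left 29104 unnamed. A gene was read at its probe with the highest mean level. A mean over probes takes in every probe of a gene, including those not well above background. An at-least fold divides the bright level by the dim probe's level or by the lowest level well above background, whichever is higher. The scaling code was run on simulated arrays made from the control array's signals, with a constant shift and known fold changes in both directions. Such arrays lack the differences in cell type markers and spike-ins given here. The run therefore checks the code and cannot show whether the scaling suits these data. Normexp used limma 3.58.1 with an offset of 50, and loess a span of 0.3 in statsmodels 0.14.6. The normexp values start from the median spot signal in place of the processed signal, so they change more than the background correction. The offset draws dim signals together, so for genes near background normexp cannot settle the sign or size of a difference.

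The members and lists were chosen with earlier results of these data known. Named are all members and their paralogues and Rac1 and Rac3. Of each list, up to 4 genes each way at least 2-fold apart are named, or else the largest difference each way. Of each marker list the 2 brightest members and the 2 largest differences are named. Cidec, Lpl, Slc2a4, Dlk1, Ucp1, Cidea, Cox7a1, Otop1, Scd3, Mc5r, Awat1, Awat2, Dgat2l6, Far2, Ivl, Trp63 and the Y-linked genes were chosen after their values were seen. No gene is named for likeness of pattern, because 2 arrays give a single difference per gene. Of 44 listed genes with several measured probes, 3 had probes at least 1 apart in log2 difference: Lepr, Scd3 and Trp63.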

Additional observations from a re-analysis of the deposited data

How the results depend on the processing

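Before scaling, the log2 difference was 0.98 for 8 spike-in probes and -0.99 for the 75th percentile. Spike-in scaling therefore moved the median of all measured genes to -1.98. The members then gave 0 genes at least 2-fold higher and 8 lower, a median of -1.41, and Retn at -0.83, a reversal. The list medians, whose rescaling was added after seeing the data, became -2.03 for transcription factors, -1.41 for lipid droplet genes, -1.72 for triglyceride synthesis, -1.63 for insulin signalling, -1.55 for adipokines, -1.65 for their receptors and -1.51 for preadipocyte genes. Relative to the median of all genes on that scale, the members' order was kept by construction. With normexp on the median spot signal, chosen after seeing the data in place of the mean spot signal, which is not analysed here, the count of members at least 2-fold higher was 0. It was 3 at 1.5-fold and 0 at 3-fold. Under median scaling, quantile, loess, the mean over probes and no filter on detection, the members' counts moved by no more than 1.5 times. Their median and the medians of the pathway lists moved by no more than the signal error. The same held for the members' counts and median, without the lists, under the 75th percentile of detected probes, the deposited table, outlier spots kept and a stricter filter, and for the members' counts alone under the error filter. Of the marker lists, the fibroblast median moved further with quantile normalization, to 0.54 from 0.79. The brown fat median did so with the mean over probes, to -0.27 from 0.11. With normexp the macrophage and leukocyte median did so too, to 0.96 from 1.17. The 7 members above 0 and the 2 below it had these signs under each scaling, correction and table other than spike-ins. For some of these the outcome was fixed in advance. Median scaling, the 75th percentile of detected probes and the deposited table differ from the main scaling by nearly constant shifts. These shifts are smaller than the smallest member difference, 0.38 for Fabp4. Among genes at least 2-fold apart, 53.8% were higher under the main scaling, 43.6% with median scaling and 0.131% with spike-ins. No paired analysis was possible because each group has 1 array. That number limits the precision of every value, and for Lep the signal over background limits it too.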

Other observations

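The other carbonic anhydrase genes and PPAR genes were also read. Of all measured genes, 49.4% lay above 0 and 6.62% were at least 2-fold lower. Of 8 carbonic anhydrase genes, Car3 included, all measured, 5 had a log2 difference above 0 and 1 was at least 2-fold lower, Car12, a membrane isozyme of epithelia, with signals of 9538 and 954 and a difference of -2.33 ± 0.20. Car2, Car5b, Car14, Car4 and Car3 lay between 0.67 and 0.89, Car1 was at -0.04, or 0.35 with normexp, and Car13 at -0.99. Of the PPAR genes, Ppara, the receptor that drives fatty acid oxidation, was 2.31-fold higher, with signals of 561 and 651, and Ppard, the isotype found in most tissues, differed by 0.24 ± 0.20. With normexp, Ppara differed by 0.95 in place of 1.21.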
